A study of Mus musculus with 32 samples.

Results

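Aanat, Tph1, Ddc, Gch1, Crx, Sag, Gngt1 and Pde6b, 8 genes that mark the pinealocytes of the pineal gland, were followed through the meninges libraries. They were chosen by symbol from the 22337 genes of the expression tables, by a rule that uses no measured value. The choice was made with earlier results of these data known. RNA-seq covered 10 meninges samples, with 12 hippocampus samples and 10 samples of sorted meningeal lymphatic endothelial cells (mLECs) as background. All samples came from male mice 6 months of age, each from 1 mouse. WT mice were littermates that did not carry the transgenes (4 meninges, 4 hippocampus and 4 mLEC samples), and untreated 5xFAD mice carried human APP and presenilin transgenes with disease mutations, expressed in neurons from the Thy1 promoter (3, 4 and 3 samples). Light-treated 5xFAD mice (3, 4 and 3 samples) received near-infrared light through the shaved scalp. In the study's procedure for control treatment, mice were likewise anesthetized and shaved and were exposed to indoor lighting. WT and 5xFAD mice alike had a C57BL/6J background.

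The pineal gland sits between the hemispheres beneath the skull and its covering membranes, and its pinealocytes make melatonin at night. Tph1 turns tryptophan into its hydroxylated form with a pterin cofactor whose synthesis starts with Gch1, Ddc then gives serotonin, Aanat acetylates serotonin, and Asmt methylates the product to melatonin. Pinealocytes and retinal photoreceptors share an origin, and both use the homeodomain factor Crx and genes of the light response such as Sag (arrestin), Gngt1 (the gamma subunit of rod transducin) and Pde6b (a catalytic subunit of the rod phosphodiesterase). Several members also work elsewhere: Tph1 makes serotonin in mast cells, Ddc serves dopamine and noradrenaline neurons, and Gch1 is used by endothelium. Many laboratory strains, C57BL/6 among them, make little melatonin because of changes in Aanat and Asmt.

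The genes lie apart on GRCm38 in the GENCODE vM21 annotation. Tph1 (ENSMUSG00000040046) is on the minus strand at chr7:46644641-46672537, Ddc (ENSMUSG00000020182) on the minus strand at chr11:11814101-11898144, Aanat (ENSMUSG00000020804) on the plus strand at chr11:116586432-116597680 and Gch1 (ENSMUSG00000037580) on the minus strand at chr14:47153895-47189413. Crx (ENSMUSG00000041578) is on the minus strand at chr7:15865947-15879968, Sag (ENSMUSG00000056055) on the plus strand at chr1:87803680-87845158, Gngt1 (ENSMUSG00000029663) on the plus strand at chr6:3993792-3997436 and Pde6b (ENSMUSG00000029491) on the plus strand at chr5:108388391-108432397. Ddc overlaps an antisense gene and Gch1 overlaps 2 processed pseudogenes, and the Smart-seq2 libraries do not mark strand, so the reads of these partners cannot be told apart from those of the members. Of the 5 annotated transcripts of Aanat, 1 is protein coding and 2 are marked for nonsense-mediated decay, and the values per gene do not separate them.

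Promoters of 3 members are shown because they hold the 6-letter motif TAATCC or, on the other strand, GGATTA, the sequence that Crx is known to prefer. The RefSeq table for GRCm38.p6 gave promoters, from 250 bases before to 50 bases after the start, for 7 of the 8 members, and had no entry for Aanat. The motif, searched on both strands and in capitals here, was in the promoters of Crx, Sag and Gngt1 and not in those of Tph1, Ddc, Gch1 and Pde6b. It was in 7.06% of all 32851 promoters of the table, and 0.359% held at least 2 copies. The Crx promoter, on the minus strand at chr7:15879906-15880205, had 2 copies that began 94 and 21 bases before the start. The Sag promoter, on the plus strand at chr1:87803430-87803729, had 1 copy 87 bases before the start. The Gngt1 promoter, on the plus strand at chr6:3993758-3994057, had 1 copy 44 bases before the start. All these distances are from the RefSeq start. For Gngt1 that start and the motif copy both lie downstream of the GENCODE start at 3993792, so inside the GENCODE gene. A match is a description of these letters and shows no binding.
Crx: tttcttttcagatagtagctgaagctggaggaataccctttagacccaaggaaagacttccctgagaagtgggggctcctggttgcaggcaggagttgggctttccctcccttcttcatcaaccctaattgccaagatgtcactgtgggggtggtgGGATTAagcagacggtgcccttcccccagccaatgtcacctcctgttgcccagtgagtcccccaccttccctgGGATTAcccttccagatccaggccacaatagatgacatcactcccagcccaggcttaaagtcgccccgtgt
Sag: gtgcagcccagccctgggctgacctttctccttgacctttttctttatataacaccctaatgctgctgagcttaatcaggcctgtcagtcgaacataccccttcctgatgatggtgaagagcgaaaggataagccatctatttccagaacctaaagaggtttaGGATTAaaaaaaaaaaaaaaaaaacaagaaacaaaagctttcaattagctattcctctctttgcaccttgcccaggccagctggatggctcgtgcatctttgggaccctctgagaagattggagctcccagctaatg
Gngt1: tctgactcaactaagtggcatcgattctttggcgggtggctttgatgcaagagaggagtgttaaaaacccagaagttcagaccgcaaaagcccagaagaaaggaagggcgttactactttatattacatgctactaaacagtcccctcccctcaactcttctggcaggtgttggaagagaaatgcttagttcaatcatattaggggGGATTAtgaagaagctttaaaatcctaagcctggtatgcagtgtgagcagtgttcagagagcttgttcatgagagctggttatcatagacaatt

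Depth ran from 6601143 to 14708202 total counts in meninges, from 13952825 to 23856476 in hippocampus and from 14231415 to 24207326 in mLECs. Besides fibroblast markers (summed FPKM of 6 genes between 650 and 1676), the meninges libraries carried a large amount of RNA of choroid plexus epithelium, whose 7 markers summed to between 15892 and 49990 FPKM, where FPKM is a fragment count scaled by transcript length and library size. Of the 6 lymphatic endothelium markers, Flt4 and Mmrn1 were detected in 10 of 10 mLEC libraries, Ccl21a in 9, Lyve1 in 8, Prox1 in 7 and Pdpn in 6. Among the meninges libraries, replicate 4 of untreated 5xFAD stood apart for the pineal genes and is described before the group comparisons.

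All 8 members were detected in all 10 meninges libraries, and their order of level was steep. Sag was highest, with a mean FPKM of 511 ± 193 (SD, n = 10), followed by Tph1 with 324 ± 175 and Ddc with 101 ± 39.3. Gch1 had 67.1 ± 23.6, Crx 51.7 ± 20.4 and Pde6b 43.2 ± 18.5. Aanat, the enzyme often called the timer of melatonin synthesis, had 9.42 ± 5.64, and Gngt1 5.19 ± 2.73. Sag ranked 189 and Tph1 318 among the 22337 genes by mean FPKM in meninges, so a pair of pinealocyte genes stood near the top of the meninges table. Neighbours in this order overlapped in their ranges over libraries, but within libraries the order was nearly fixed: each gene exceeded the next in 10 of 10, except that Sag exceeded Tph1 in 9 of 10 and Crx exceeded Pde6b in 7 of 10.

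Hippocampus held little of these transcripts. Tph1 was at 0.04 to 0.51 FPKM in the 12 hippocampus libraries, Gch1 at 0.40 to 1.37, Sag at 0.93 to 3.61 and Ddc at 1.43 to 4.04. Aanat reached 0.23, Pde6b 0.24, Crx 0.10 and Gngt1 0.10, each with libraries at 0. For every member the lowest meninges library was above the highest hippocampus library. In edgeR's quasi-likelihood test over 15132 genes, 8 of 8 members were higher in meninges with an adjusted p below 0.05 and at least a 2-fold change, where 48.8% of all genes tested passed in either direction and 28.0% passed as higher in meninges. The log2 fold change was 11.36 (SE 0.41) for Crx, 10.27 (SE 0.38) for Tph1, 10.13 (SE 0.44) for Pde6b and 8.13 (SE 0.26) for Sag, and 6.84 (SE 0.43) for Aanat, 6.15 (SE 0.27) for Gch1 and 4.93 (SE 0.26) for Ddc. Gngt1 had 0 counts in all 4 WT hippocampus libraries and 208 in the 4 WT meninges libraries, so that it was at least 123-fold higher in WT meninges against a floor of 3 counts over the group.

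The sorted mLECs, quantified in a separate table and so set side by side without a test, split the members. Aanat, Tph1, Crx, Sag, Gngt1 and Pde6b had 0 counts in all 10 mLEC libraries, where a count of 0 allows up to 0.124 to 0.211 CPM (counts scaled to library size), for counting error only. Ddc was above 0 in 2 of 10, with 1.53 FPKM in WT replicate 4 and 26.28 in untreated 5xFAD replicate 4. Gch1 differed from the other members, being detected in 10 of 10 mLEC libraries at 16.7 to 77.6 FPKM, a range that overlapped the 16.0 to 94.8 FPKM of meninges. Its cofactor is also used by the nitric oxide synthase of endothelium.

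**Figure D1:**
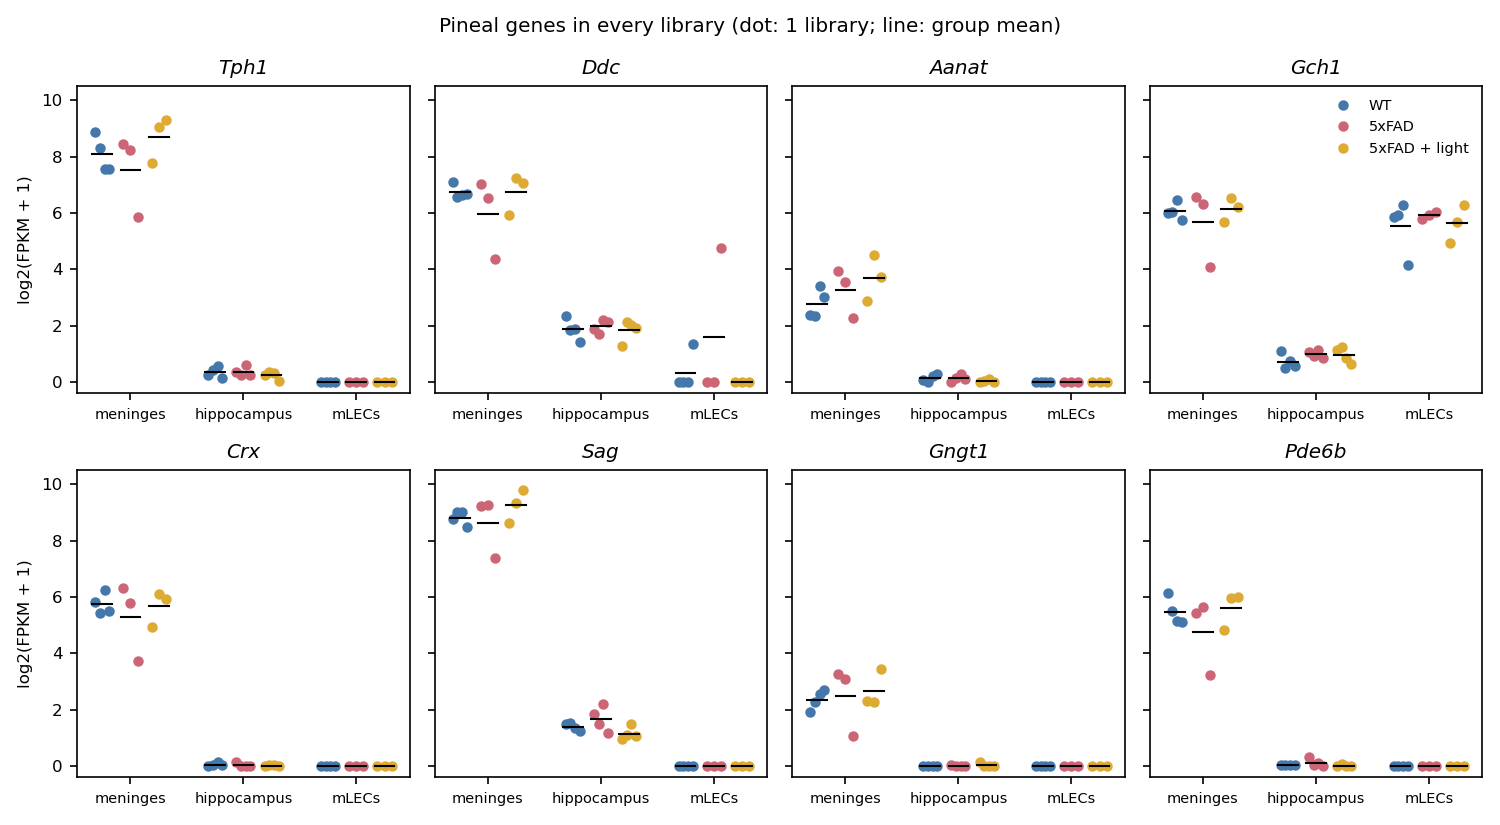
Level of each of the 8 genes in every library, as log2(FPKM + 1), in meninges, hippocampus and sorted mLECs, coloured by group (dot: 1 library, line: group mean). In all 8 panels every meninges library lies above every hippocampus library, 6 genes are at 0 in all 10 mLEC libraries, and only Gch1 has a comparable level in mLECs; the lowest meninges dot of each gene is untreated 5xFAD replicate 4.

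Other genes of the same pathways, taken from fixed lists, were mostly higher in meninges than in hippocampus too. In mLECs they differed more. Members included, 6 of 16 melatonin genes, 7 of 13 transcription factors and 13 of 22 phototransduction genes had 0 counts in every mLEC library. So did 4 of 9 rod genes and 2 of 9 adrenergic genes. Gngt2, of the phototransduction list, was detected in all 10 mLEC libraries at up to 818 FPKM, and Gchfr in 5 at up to 142. Of 12 tested genes of melatonin synthesis and its cofactor, 7 were higher in meninges than in hippocampus and 1 was lower. Besides the 4 members, these were Asmt (0.55 to 8.27 FPKM, with 0 counts in all 12 hippocampus libraries, which makes it at least 335-fold higher against a floor of 3 counts over that group), Pcbd1 (log2 fold change 2.77) and the Gch1 regulator Gchfr (4.15), while the cofactor recycling enzyme Qdpr was lower (-1.08). The genes of monoamine breakdown, Maoa (0.15) and Maob (0.30), did not pass. Of 10 tested transcription factors of pinealocytes and photoreceptors, 8 were higher and 1 was lower: Otx2, which acts upstream of Crx, was at 37.7 to 104.5 FPKM (5.33), Neurod1 at 15.0 to 79.0 (2.24) and Lhx4 at 7.43 to 56.8 (9.46), and Rorb was lower (-1.04). The rod factors Nrl and Nr2e3 were at most 0.56 and 0.15 FPKM.

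Of 18 tested phototransduction genes, 17 were higher in meninges and 0 lower. Pde6g, the inhibitory subunit of the phosphodiesterase, reached 161 to 1057 FPKM (10.41), and Gnb3, a transducin beta subunit, 109.9 to 722 (11.32). The cone genes Gnat2 (11.0 to 80.2), Pde6c (5.85 to 52.3) and Opn1sw (3.46 to 24.7) were present. Of 5 tested rod genes that are mostly known from the retina, 4 were higher, among them Rom1 (56.3 to 300.1 FPKM) and Rbp3 (25.03 to 118). Of 8 tested genes in the list for the adrenergic response, by which the sympathetic nerve drives the pineal gland, 7 were higher. Among them were the receptor Adrb1 (2.14) and Chrnb4 (8.46), an acetylcholine receptor subunit that the list holds besides adrenergic genes. Over the 5 lists together, 53 genes were tested and 43 were higher in meninges. The median log2 fold change was 3.46 for melatonin synthesis (with Asmt at its bound as well), 5.40 for the transcription factors, 7.35 for phototransduction, 7.16 for the rod genes and 1.42 for the adrenergic response, against 0.09 over all 15132 genes. Between the meninges groups, 0 genes of these lists were called, and the medians of the lists lay between -0.25 and 0.43 for light-treated against untreated 5xFAD, where that of all tested genes was 0.04.

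**Figure D2:**
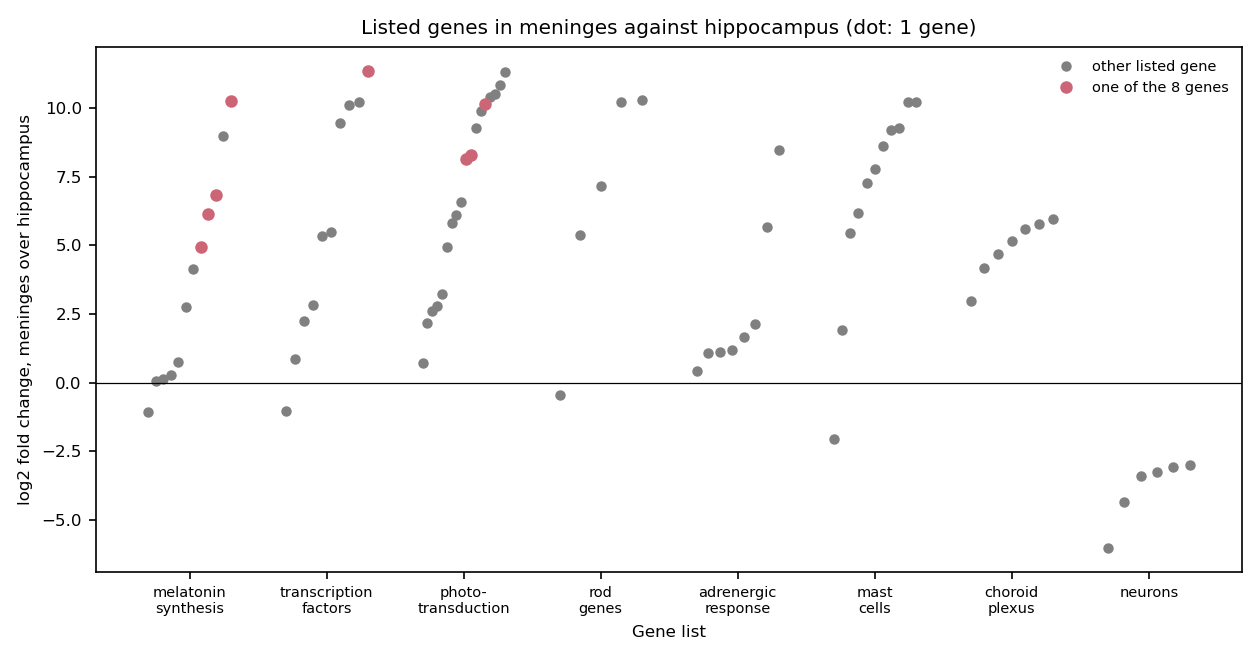
Fitted log2 fold change of meninges over hippocampus for each tested gene (dot) of 5 pineal and 3 other marker lists, with the 8 pineal members in red. Most dots of the pineal lists lie above 0, as do those of mast cells and choroid plexus, and the 6 neuron markers lie below 0.

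Replicate 4 of untreated 5xFAD was the lowest of the 10 meninges libraries for 8 of 8 members, while 13.3% of all 14318 tested genes were lowest there. Tph1 was at 57.3 FPKM against 187 to 623 in the other 9 libraries, 5.48-fold under their median. The fold under the median of the others was 5.37 for Pde6b, 5.12 for Ddc, 4.56 for Gch1, 4.45 for Crx, 4.44 for Gngt1, 3.13 for Sag and 2.51 for Aanat. A drop of at least 3-fold was seen in 7 of 8 members and in 2.04% of all tested genes, and 39 of the 53 tested genes of the 5 pineal lists were lowest in this library. In bulk tissue, fewer pinealocytes in a sample and less of these RNAs per cell cannot be told apart. Choroid plexus and mast cell markers did not share the drop: 0 of 7 and 0 of 11 were at least 3-fold under the median of the others. Kl of the choroid plexus list was itself lowest there, 1.27-fold under. Of 4 tested pituitary markers, 2 were at least 3-fold under, Cga (5.17-fold) and Gh (3.13-fold). The pituitary sum, 54.3 FPKM, lay within the 35.9 to 485 of the other libraries. In this library the choroid plexus markers summed to 26333 FPKM (15892 to 49990 in the other 9) and the mast cell markers to 249 (125 to 347). Its sums for fibroblasts (1676 against 650 to 1450) and blood endothelium (209 against 61.1 to 169.6) were the highest. Of the 6 fibroblast markers only Dcn, at 1257 FPKM, was itself highest there, while every blood endothelium marker was. The sum for neurons (81.2 against 109 to 464) was the lowest. Of the 6 neuron markers, however, only Snap25, at 50.7 FPKM, was itself lowest there. The paper does not state whether the pineal gland was taken with the meninges. The part of the dissection in these values was not tested.

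**Figure D3:**
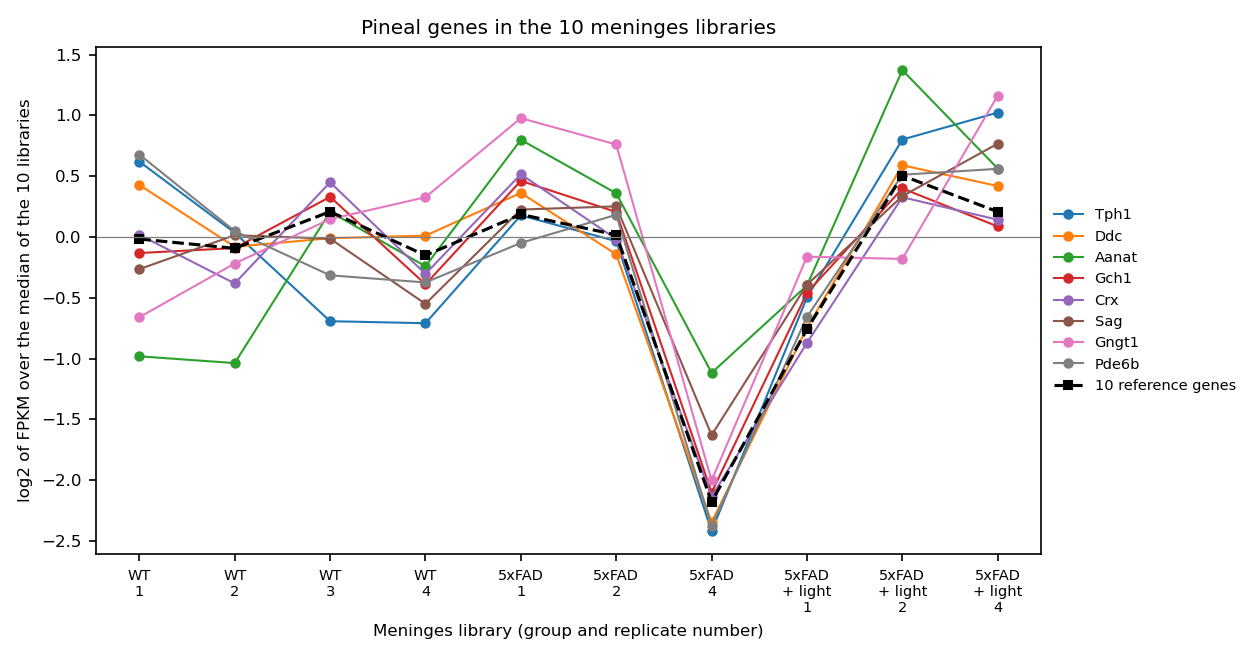
Each of the 8 genes in the 10 meninges libraries as log2 of its FPKM over its own median, with the geometric mean of 10 other pineal genes as a dashed line. All lines drop together in untreated 5xFAD replicate 4, where the 8 genes sit between 2.42 and 1.12 below their median on the log2 scale, and light-treated replicate 1 is also below 0 for all of them.

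The group comparisons asked whether the 5xFAD genotype or the light treatment moved these genes in meninges. For Tph1, the first step, FPKM was 471, 314, 189.7 and 187 in the 4 WT libraries, 347, 299 and 57.3 in untreated 5xFAD, and 217, 534 and 623 in light-treated 5xFAD. The highest values were thus in light-treated replicates 2 and 4, and all groups overlapped. For Ddc, FPKM was 135, 94.7, 99.4 and 101 in WT, 129, 90.7 and 19.7 in untreated 5xFAD, and 59.6, 151 and 134 in light-treated 5xFAD. WT was tight around its mean of 107 ± 18.4 (SD, n = 4), and the other groups spread to both sides of it. Gch1, the cofactor enzyme, was at 62.8, 64.6, 86.5 and 52.6 FPKM in WT, at 94.8, 79.4 and 16.0 in untreated 5xFAD and at 50.04, 90.8 and 73.1 in light-treated 5xFAD, with overlap in every pair of groups.

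Aanat acetylates serotonin and is the step that rises at night. Its FPKM was 4.22, 4.06, 9.62 and 7.05 in WT, 14.5, 10.7 and 3.84 in untreated 5xFAD, and 6.32, 21.6 and 12.3 in light-treated 5xFAD. The 4 libraries with the highest values were all from 5xFAD mice, yet each 5xFAD group also had a library within the WT range or below it.

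Crx, the transcription factor, was at 55.0, 41.7, 74.3 and 44.1 FPKM in WT, 77.8, 53.7 and 12.4 in untreated 5xFAD and 29.7, 68.2 and 60.0 in light-treated 5xFAD. For Sag the values were 428, 519.9, 509.8 and 352 in WT, 602, 613 and 166 in untreated 5xFAD and 392, 649.6 and 876 in light-treated 5xFAD, the highest single level of any member. Arrestin was thus above the whole WT range in 2 of 3 libraries of each 5xFAD group. Gngt1 was at 2.79, 3.79, 4.88 and 5.53 in WT, 8.68, 7.47 and 1.10 in untreated 5xFAD and 3.94, 3.89 and 9.87 in light-treated 5xFAD, resting on 13 to 121 counts per library. Pde6b was at 68.9, 44.5, 34.6 and 33.2 in WT, 41.6, 48.9 and 8.29 in untreated 5xFAD and 27.3, 61.4 and 63.5 in light-treated 5xFAD. For both rod genes the groups overlapped.

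No member passed the test in any comparison between groups (edgeR, 14318 genes, adjusted p below 0.05 and at least 2-fold): 0 of 8 were called in untreated 5xFAD against WT, where 0.00% of all genes were called, and 0 of 8 in light-treated against untreated 5xFAD and against WT, where 0.0140% of all genes were called in each. In FPKM, 0 of 8 members had groups that did not overlap, against 4.85%, 20.8% and 12.3% of all tested genes in these comparisons. Exact permutation of the labels on log2(FPKM + 1), two-sided, cannot go below p = 0.1 for 3 against 3 or 0.0571 for 4 against 3, and no member reached these. The 3 comparisons share samples and are not independent of each other.

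Light-treated against untreated 5xFAD, the largest fitted difference was that of Tph1, a log2 fold change of 0.83 (95% interval -0.34 to 2.00, adjusted p = 0.524), followed by Pde6b with 0.62 (-0.49 to 1.73) and Sag with 0.48 (-0.43 to 1.39). Aanat had 0.44, Ddc 0.31, Gch1 0.16, Crx 0.12 and Gngt1 0.06. These values depend on single libraries, the low one among them. Without untreated 5xFAD replicate 4, Tph1 had 0.37 (-0.56 to 1.29), Pde6b 0.16, Sag 0.08 and Aanat 0.06. The sign then turned for Ddc (-0.15), Gch1 (-0.30), Crx (-0.34) and Gngt1 (-0.43). Leaving out light-treated replicate 2 brought Aanat to 0.01, and leaving out light-treated replicate 4 brought Gngt1 to -0.59. Leaving out light-treated replicate 1 raised Aanat to 0.75 and Gngt1 to 0.26. In untreated 5xFAD against WT, Aanat was the largest with 0.65 (-0.35 to 1.66, adjusted p = 0.987), and Pde6b (-0.46) and Ddc (-0.31) were the lowest. Without replicate 4, Aanat had 1.03 (0.08 to 1.98, unadjusted p = 0.0359, adjusted p = 0.999 by edgeR), Gngt1 0.93, Sag 0.43 and Pde6b -0.0013, and the sign turned for Tph1 (0.26), Ddc (0.15), Gch1 (0.39) and Crx (0.31). In light-treated 5xFAD against WT, Aanat had a log2 fold change of 1.10 (0.10 to 2.09, unadjusted p = 0.0336), which did not pass over all genes (adjusted p = 0.268 by edgeR). Tph1 had 0.62 (-0.46 to 1.70), and Ddc (-0.00, -0.97 to 0.96) and Crx (-0.03, -0.999 to 0.94) were near 0. With all 10 libraries, the intervals of all 8 members in all 3 comparisons reach past a 1.5-fold change in at least one direction.

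**Figure D4:**
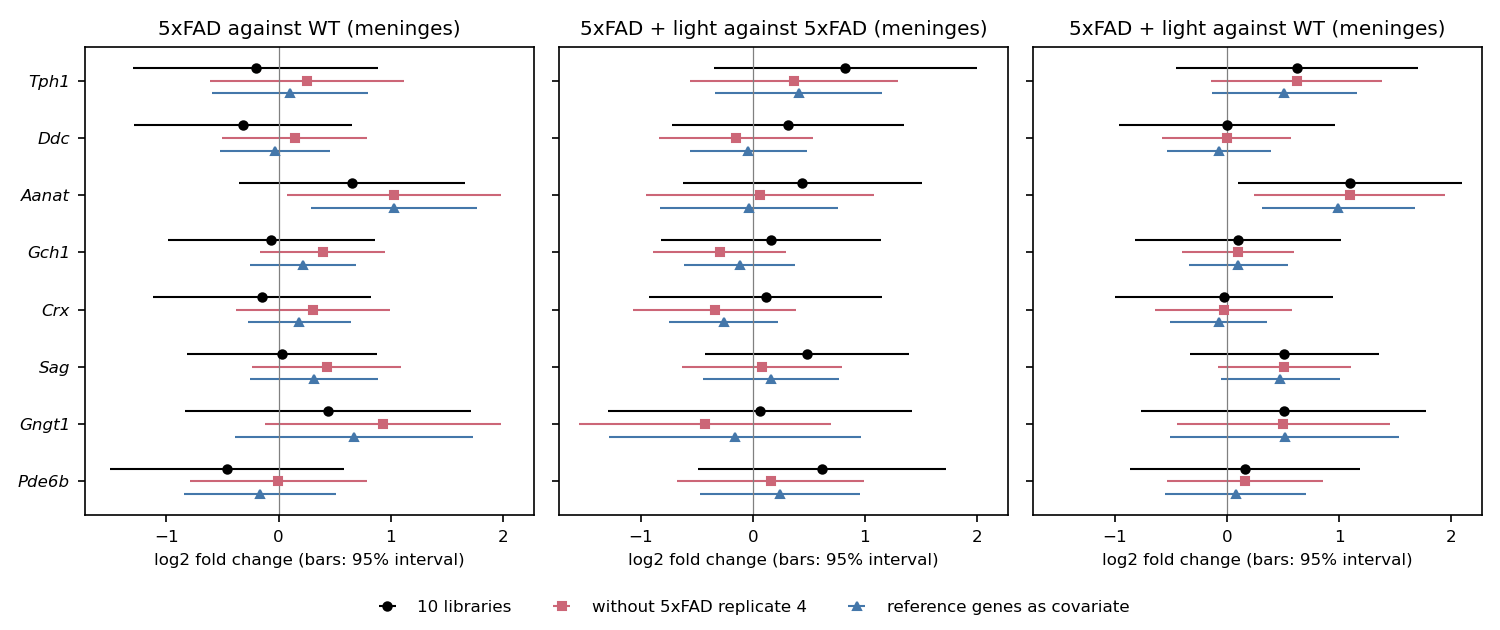
Fitted log2 fold changes of the 8 genes with 95% intervals for the 3 comparisons in meninges, with all 10 libraries (black), without untreated 5xFAD replicate 4 (red) and with the level of 10 other pineal genes as a covariate (blue). The black bars include 0 except for Aanat in light-treated 5xFAD against WT (0.10 to 2.09), and Aanat is the only gene whose red and blue bars stay above 0 against WT, in both 5xFAD groups.

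Hippocampus offered little contrast for most members, being near 0, while Sag, Ddc and Gch1 had at least 28, 48 and 20 counts in every hippocampus library. In the test of whether a difference in meninges differed from that in hippocampus, 0 of 8 members were called for untreated 5xFAD against WT, against 1.69% of all genes, and 0 of 8 for light-treated against untreated 5xFAD, against 0.971%. Mast cell markers, given here because mast cells also use Tph1, summed to 125 to 297 FPKM in WT, 249 to 301 in untreated 5xFAD and 186 to 347 in light-treated 5xFAD meninges. Their part in the Tph1 values was not tested.

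Because the members moved together between libraries, each was also set against the level of other pineal genes in its own library. The scale was the geometric mean FPKM of 10 other genes from the lists of melatonin synthesis, transcription factors and phototransduction (Lhx4, Bsx, Isl2, Gnb3, Gnat2, Pde6c, Pde6g, Cngb3, Aipl1 and Opn1sw), taken by level over all libraries and without the group labels: a mean of at least 10 FPKM in meninges, at least 100 times that of hippocampus, and below 1 FPKM in all mLEC libraries. This scale was chosen after the values were seen. It was 46.7, 44.3, 54.6 and 42.5 FPKM in WT, 53.7, 47.8 and 10.4 in untreated 5xFAD, and 27.9, 67.0 and 54.6 in light-treated 5xFAD. Dividing by it lowered the SD of log2 values over the 10 libraries from 0.75 to 0.18 for Gch1, from 0.79 to 0.19 for Crx, from 0.86 to 0.21 for Ddc, from 0.89 to 0.35 for Pde6b and from 0.65 to 0.34 for Sag. It stayed larger for Tph1 (0.99 to 0.52), Gngt1 (0.92 to 0.59) and Aanat (0.85 to 0.68). Gch1 and Ddc thus kept a near constant proportion to the photoreceptor-type genes, also in the library where all of them were low, while Aanat, Gngt1 and Tph1 varied more against them.

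On this scale the Aanat values of WT and 5xFAD mice did not overlap. The ratio was 0.131 ± 0.046 in WT (SD, n = 4, 0.0904 to 0.176), 0.287 ± 0.074 in untreated 5xFAD (n = 3, 0.224 to 0.368) and 0.258 ± 0.055 in light-treated 5xFAD (n = 3, 0.226 to 0.322). All 6 libraries of 5xFAD mice were above all 4 WT libraries. The exact permutation p, two-sided, was 0.0571 in each comparison with WT, the smallest that 4 against 3 allows. On the same scale the groups did not overlap in 3.45% and 5.57% of 13995 genes, against 4.85% and 12.3% of 14318 genes in FPKM. Dividing by the scale adds its spread to genes that do not follow it, so the shares over all genes may run low for this use. Of the other 7 members none was apart in either comparison. On this scale 24 such tests were run over the members and the comparisons. With the scale as a covariate in edgeR, Aanat had a log2 fold change of 1.03 (SE 0.34) in untreated 5xFAD against WT and 0.99 (SE 0.31) in light-treated 5xFAD against WT, neither of which passed over all genes (unadjusted p = 0.0102 and 0.00787, adjusted p = 0.999 and 0.166 by edgeR). Light-treated and untreated 5xFAD overlapped for Aanat, with a difference of -0.03 (95% interval -0.83 to 0.76). The low level of Aanat, 51 to 432 counts per library, leaves a larger counting error than for Sag or Tph1. Neither the paper nor the sample labels give the hour of collection, and its part in the Aanat values was not tested.

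Light-treated and untreated 5xFAD did not overlap for 2 of 8 members on this scale, against 5.27% of 13995 genes. Here too the share over all genes was lower on this scale than in FPKM, where it was 20.8% of 14318 genes. The Tph1 ratio of all 3 light-treated libraries was above that of all 3 untreated ones ( 9.05 ± 2.05 against 6.07 ± 0.51, SD, n = 3 each), though WT spanned both (3.47 to 10.1), and the Crx ratio was below it (1.06 ± 0.041 against 1.25 ± 0.17). Both had an exact permutation p of 0.1, the smallest that 3 against 3 allows, and with the scale as a covariate in edgeR neither passed (Tph1 0.41, adjusted p = 0.629, and Crx -0.26, adjusted p = 0.644).

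**Figure D5:**
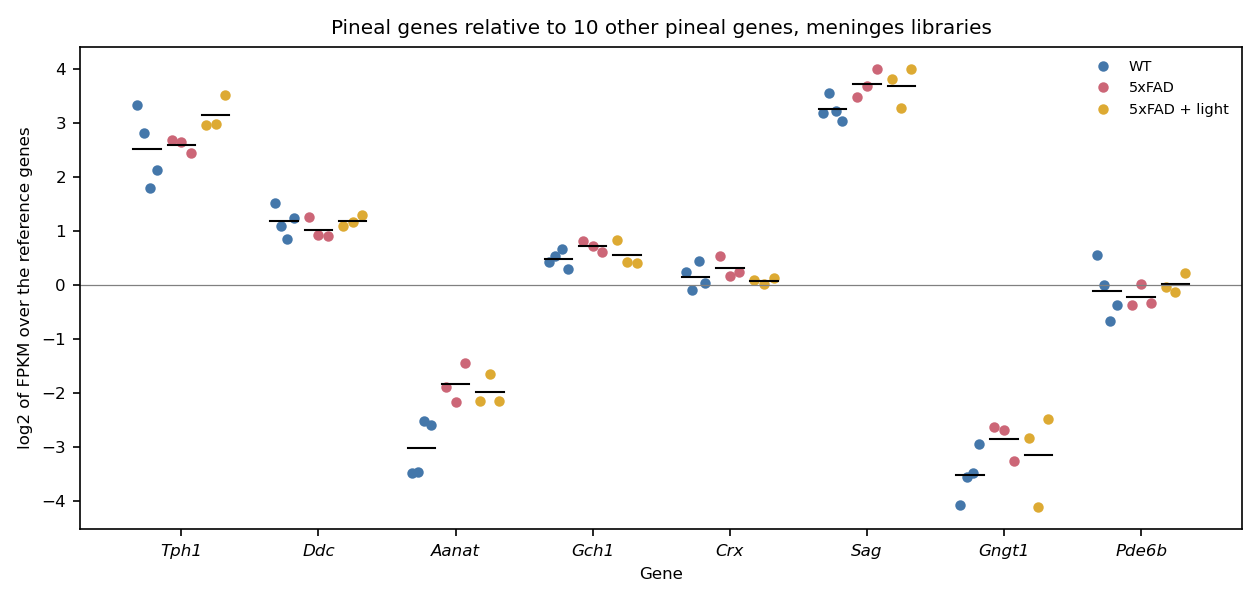
Each of the 8 genes in every meninges library as log2 of its FPKM over the geometric mean of 10 other pineal genes, by group (dot: 1 library, line: group mean). Gch1, Crx and Ddc keep a narrow band over all libraries, and for Aanat all 6 dots of 5xFAD mice lie above the 4 WT dots, with mean ratios of 0.287 and 0.258 against 0.131.

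The genes whose pattern over the 10 meninges libraries was most like the mean log2(FPKM + 1) of Aanat, Crx, Sag and Gngt1 were Neurod1 (Pearson correlation 0.97, Spearman rank correlation 0.94), Gtf2f2 (0.97 and 0.96), Ssu72 (0.95 and 0.98), Mmd (0.95 and 0.87), Tc2n (0.95 and 0.94), Glb1l3 (0.94 and 0.83), Stx3 (0.94 and 0.83), Kpna3 (0.94 and 0.84), Slc39a4 (0.93 and 0.88) and Chgb (0.92 and 0.76), of 15912 genes compared. These points share libraries and normalization, and without untreated 5xFAD replicate 4 the r of these genes lay between 0.80 for Chgb and 0.93 for Neurod1. Neurod1, a transcription factor of pinealocytes, was the only one of them in a fixed list. Glb1l3 and Slc39a4 were at 0 in all mLEC libraries and at most 0.03 and 2.77 FPKM in hippocampus, against 2.02 to 24.8 and 24.2 to 113 in meninges. Most of the others were also expressed in hippocampus, Chgb, a granin of secretory vesicles, at up to 368 FPKM.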

How the data were processed

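RNA-seq was made with Smart-seq2 from 10 meninges, 12 hippocampus and 10 mLEC samples. The authors deposited estimated counts per gene (expected counts, not normalized) and FPKM values. The study's methods name fastp and RSEM, whereas the submitters' processing notes list Trimmomatic, HISAT2, StringTie, DESeq2 and mm10. After rounding, these counts went into the quasi-likelihood test of edgeR 4.0.16 under R 4.3.3 (TMM, Benjamini-Hochberg adjustment), with the 3 groups of meninges in 1 fit and the 6 groups of meninges and hippocampus in another. The test covered genes that reached 1 FPKM in 3 or more samples of a fit. Exact permutation of labels used log2(FPKM + 1) of single genes. The mLEC table was normalized separately and is only set beside the others. The steps were tested on simulated data.

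Symbols agreed between the 2 tables for 69.2% of genes and for all 8 members. Between replicates, chi-square over its degrees of freedom was 30.1 to 90.9, beyond counting error, and the biological coefficient of variation in meninges was 0.350. The members, gene lists and tests were chosen with earlier results of these data known. Named genes were all members, list genes by call or level, and the 10 genes most like the members. Alternatives were median-of-ratios scaling, DESeq2 1.42.0, limma 3.58.1 on log2(FPKM + 1) or log2(FPKM + 0.1), no filter, the compared groups alone, no fold threshold, the replicate number as a block, and each library left out. The pineal reference scale and covariate were added after the data were seen. Protein sequences were not used here.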

Additional observations from a re-analysis of the deposited data

Results flagged for a closer look

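Within groups of 4 libraries, a library was marked where its gap to the nearest other exceeded the 95% critical value of Dixon's test. Of 33 groups with differing values, 7 were marked. Except for Ddc in WT meninges, the other 3 libraries of each marked group were tied, which marks a group whatever the size of the gap. The usual rate of about 1 in 20 therefore does not apply to this count. In meninges, Ddc in WT replicate 1 was at 134.65 FPKM against 94.7 to 101 in the other 3 WT libraries. In mLECs, Ddc was at 1.53 FPKM in 1 WT library and at 0 in the other 3. The remaining 5 were low hippocampus values of 1 library each, with the other 3 libraries of the group at or near 0: Crx at 0.10 and Gngt1 at 0.04 FPKM in untreated 5xFAD, Gngt1 at 0.10 and Pde6b at 0.06 in light-treated 5xFAD, and Pde6b at 0.03 in WT. At these levels a library holds at most a few reads of the gene.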

How the results depend on the processing

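The higher level in meninges than in hippocampus held for 8 of 8 members under every alternative run, and 0 of 8 members were called in any group or tissue interaction comparison under any of them. Genes called over the whole table moved more. For light-treated against untreated 5xFAD (2 genes), DESeq2 called 72, limma 1 with either pseudocount and the replicate block 0. For light-treated 5xFAD against WT (2 genes), DESeq2 called 373, no filter 16 and the replicate block 0. For meninges against hippocampus (7388 genes), dropping the fold threshold gave 12397. For the tissue interaction of light (147 genes), DESeq2 called 575, limma 43 and, with a pseudocount of 0.1, 36, no filter 54 and the replicate block 19. For that of genotype (256 genes), DESeq2 called 469 and limma on log2(FPKM + 1) 139. Untreated 5xFAD against WT called 0 genes by edgeR, with 574 at an unadjusted p below 0.05, and 0 by DESeq2 and limma. Leaving out 1 library gave 0 to 4 genes for light-treated against untreated 5xFAD, 1 to 134 against WT (134 without WT replicate 2), 132 to 320 for the interaction of genotype and 10 to 314 for that of light.

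Signs of small differences turned as follows. With the pineal reference as a covariate, light-treated against untreated 5xFAD became -0.039 for Ddc, -0.035 for Aanat, -0.12 for Gch1, -0.26 for Crx and -0.16 for Gngt1, and untreated 5xFAD against WT 0.10 for Tph1, 0.22 for Gch1 and 0.19 for Crx. For Sag in untreated 5xFAD against WT, no filter gave -0.013 and limma -0.18 with either pseudocount. For light-treated 5xFAD against WT, Ddc became 0.035 without the filter and 0.00097 by limma on log2(FPKM + 1), and Crx 0.013 without the filter. As a plain difference of mean log2 values, Ddc was 0.00097 with a pseudocount of 1 and -4.7e-05 with 0.1. For the interaction of light, Crx became -0.00022 by DESeq2 and Gngt1 0.18 and 0.21 by limma, and for that of genotype Crx became -0.45 and -0.36 and Gngt1 0.10 by limma. The causes were not tested. Replicate numbers are shared between groups, but same-numbered meninges samples did not deviate together (correlations of -0.32 to 0.26 in 9 pairs, 2 above 0.1). With the replicate number as a block, Gngt1 became -0.057 in light-treated against untreated 5xFAD, and Ddc 0.00017 and Crx 0.17 in light-treated 5xFAD against WT.

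Leaving out 1 library at a time, the log2 fold changes that turned ranged over the following values. In light-treated against untreated 5xFAD they were Ddc -0.15 to 0.82, Gch1 -0.30 to 0.56, Crx -0.34 to 0.63, Gngt1 -0.59 to 0.46. In untreated 5xFAD against WT they were Tph1 -0.64 to 0.26, Ddc -0.83 to 0.15, Gch1 -0.46 to 0.39, Crx -0.66 to 0.31, Sag -0.24 to 0.43. In light-treated 5xFAD against WT they were Ddc -0.17 to 0.24, Gch1 -0.032 to 0.25, Crx -0.22 to 0.21, Gngt1 -0.15 to 0.78, Pde6b -0.11 to 0.42. In the tissue interaction of genotype they were Tph1 -0.87 to 0.018, Crx -0.43 to 2.71, Gngt1 -1.40 to 0.40, and in that of light Gch1 -0.27 to 0.56, Crx -2.52 to 0.88, Gngt1 -2.12 to 1.46. With 3 or 4 mice a group, the intervals between groups stay wide, and Aanat and Gngt1 add counting error.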

Other observations

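Adrb1, the beta receptor through which noradrenaline raises pineal Aanat, did not follow the other pineal genes over the meninges libraries. It was at 4.93, 4.03, 19.6 and 15.5 FPKM in WT, 16.1, 13.4 and 4.35 in untreated 5xFAD, and 3.87, 2.87 and 1.77 in light-treated 5xFAD. All 3 light-treated libraries were below every other meninges library. The log2 fold change was -1.98 against untreated 5xFAD and -1.92 against WT, which did not pass over all genes (unadjusted p = 0.00556 and 0.00523, adjusted p = 0.289 and 0.159 by edgeR), and groups did not overlap in FPKM for 20.8% and 12.3% of tested genes in these comparisons. Fosl2, a transcription factor of the same adrenergic list, had -1.34 and -1.91 (adjusted p = 0.369 and 0.156 by edgeR). Adrb1 and Fosl2 are expressed by other cell types too, and these genes were singled out after their values were seen.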
